A study of Saccharomyces cerevisiae with 6 samples.

Results

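The 8 ribose methylation sites of yeast ribosomal RNA described here are those guided by the snoRNAs of 2 gene clusters: SNR41, SNR70 and SNR51 form the first (SNR41-70-51), and SNR57, SNR55 and SNR61 the second (SNR57-55-61). The rule that chose them uses the guide each site is assigned to and no measured value, but earlier results of these data were known. They are 8 of 55 known sites: 6 of 18 in the 18S rRNA of the small subunit (SSU) and 2 of 37 in the 25S rRNA of the large subunit (LSU). The 6 guide genes are among the 42 guide RNAs of the list of known sites. SNR41-70-51 accounts for 5 of the sites and SNR57-55-61 for 3. In the R64 gene table each cluster's 3 snoRNA genes stood next to each other, and the authors' deposited annotation lists all 8 positions as ribose methylated.

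The study measured read ends along rRNA of Saccharomyces cerevisiae in 6 groups of 1 sample each. They were chromatin-associated RNA of the wild-type strain BY4741; whole-cell RNA of the knock-out strain YWD486, whose plasmid holds the snR67-snR53 region with a base substitution that abolishes methylation of LSU-G2619; whole-cell RNA of the knock-in strain YWD680, whose plasmid encodes an artificial snoRNA aimed at LSU-U2954; gel-purified mature LSU rRNA of YWD680; and gel-purified mature LSU and SSU rRNA of BY4741. The labels do not say whether each strain is 1 clone or what the chromosomes of the plasmid-bearing strains carry. The guides of the 8 sites are not named in the label of any strain, and the level of the snoRNAs themselves was not measured.

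Box C/D snoRNAs are small nucleolar RNAs that carry the methyltransferase Nop1 (fibrillarin) with them, pair with a short stretch of rRNA and place a methyl group on the ribose of 1 nucleotide in that stretch. Most yeast snoRNAs are transcribed singly, but a few are made as one polycistronic precursor, which the endonuclease Rnt1 cuts and exonucleases trim to the separate snoRNAs. In these clusters snR41 has 2 target nucleotides in 18S rRNA, snR51 has 1 target in each subunit, and snR70, snR57, snR55 and snR61 have 1 target each. No guide or rRNA sequence was used here, so the sites are given by position.

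With positions counted from the 5′ end of the 18S or 25S rRNA, the targets are SSU-Am541 and SSU-Gm1126 (snR41), SSU-Cm1639 (snR70), SSU-Am100 and LSU-Um2729 (snR51), SSU-Gm1572 (snR57), SSU-Um1269 (snR55) and LSU-Am1133 (snR61). All lie within non-coding rRNA on the minus strand of chromosome XII. By the coordinates in the files, for which the sources used here name no genome build, SSU-Am541 is at 466329, SSU-Gm1126 at 465744, SSU-Cm1639 at 465231 and SSU-Am100 at 466770. SSU-Gm1572 is at 465298, SSU-Um1269 at 465601, LSU-Um2729 at 461590 and LSU-Am1133 at 463186.

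In RiboMeth-seq the RNA is partly cleaved by alkali and the fragment ends are counted at every bond. A methylated ribose protects its bond, so a methylated nucleotide has few read ends next to its neighbours. The methylation score of a nucleotide was 1 minus the ratio of its read ends to the weighted mean of the 6 positions on each side, called the flank mean below. A score near 1 means almost complete protection and 0 means none. Each score has a 95% counting interval, which covers counting error only and treats every read as a separate molecule, although without molecular identifiers some reads can be copies of 1 molecule. With 1 sample a group there is no p-value and no measure of spread between cultures. The only repeat came from the whole-cell RNA of the knock-in, deposited as separate first and second files that are called runs here. A difference between libraries was called when its 95% interval excluded 0 and it exceeded 2 SD of the difference between these runs, taken over all known sites in the same subunit. For SSU sites that limit was 0.151, and for LSU sites 0.329.

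Depth was by far greatest for chromatin-associated RNA, at 18489246 read ends in the LSU and 9790438 in the SSU. The other libraries used for the LSU had between 214862 and 1229170 read ends on it, and those used for the SSU between 214756 and 517732. Flank means at the 8 sites were between 1953 and 13801 in chromatin and between 32.2 and 206 in the knock-out, so that 7 of the 8 sites rest on 1 to 9 read ends in the knock-out. The targeted positions matched their labels. LSU-U2954 scored 0.894 in knock-in whole-cell RNA and 0.924 in knock-in mature LSU rRNA, against 0.376 in mature wild-type LSU rRNA. It scored 0 in chromatin-associated RNA and 0 in the knock-out. LSU-U2954 is not among the 55 known sites, so a score of 0.376 was reached without a listed methylation. LSU-G2619 scored 0 in the knock-out, against 0.978 in wild type.

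In mature wild-type rRNA all 8 sites were protected. Each scored above the 99th percentile of positions not listed as modified, a threshold of 0.642 for SSU and 0.707 for LSU positions. Over all known sites 98.2% passed that threshold, so that 8 of 8 is close to what the known sites did as a whole. Of the 8, LSU-Am1133 was highest, with 8 read ends against a flank mean of 607 and a score of 0.987 (95% interval 0.974 to 0.994). SSU-Am100 was lowest, with 31 read ends against 135 and a score of 0.771 (0.673 to 0.845), and it ranked last of the 18 known SSU sites. The other 6 lay between 0.920 and 0.985.

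**Figure D1:**
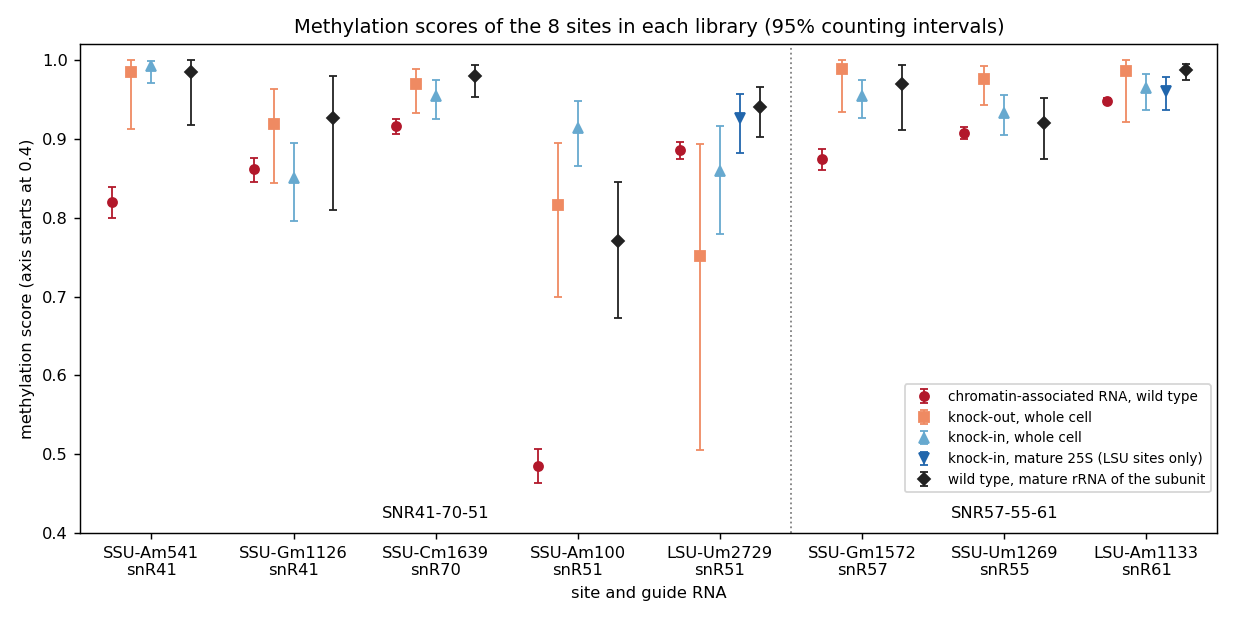
Methylation scores (vertical axis, starting at 0.4) of the 8 sites, by site and guide RNA; each point is 1 library and each bar its 95% counting interval. Chromatin-associated RNA lies at 0.820 at SSU-Am541 and 0.485 at SSU-Am100, with intervals that do not reach those of mature wild-type rRNA.

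SNR51 encodes snR51, whose targets are 1 adenosine in 18S rRNA and 1 uridine in 25S rRNA. SSU-Am100 had 2376 read ends against a flank mean of 4618 in chromatin, a score of 0.485 (0.464 to 0.506). It scored 0.816 (0.699 to 0.895) in the knock-out, from 16 read ends, and 0.914 (0.865 to 0.948) in knock-in whole-cell RNA, from 19. Against the mature wild-type value of 0.771 the chromatin library is low and the knock-in library high, and the knock-out overlaps wild type. In rank it was 18 of 18 SSU sites in chromatin, in the knock-out and in wild type, and 11 of 18 in the knock-in. Few 18S reads were also present in the gel-purified wild-type LSU library. There the site had 1 read end against 12.8, a score of 0.922. Its interval of 0.557 to 0.998 holds the value of the SSU library. A modified position is annotated 6 nucleotides downstream of SSU-Am100, inside its flank. Leaving that position out gave 0.514 in chromatin and 0.775 in the wild-type SSU library.

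LSU-Um2729 had 458 read ends against 4001 in chromatin, a score of 0.886 (0.875 to 0.896). In the knock-out it scored 0.752 (0.506 to 0.894), from 8 read ends, and in knock-in whole-cell RNA 0.859 (0.779 to 0.916). Gel-purified LSU rRNA gave 0.926 (0.882 to 0.957) in the knock-in and 0.940 (0.902 to 0.966) in wild type. The 2 gel-purified libraries were highest and overlapped each other. Among the 37 LSU sites it ranked 7 in chromatin, 12 in knock-in mature LSU rRNA and 29 in wild type. LSU-Um2724, a target of snR67, lies 5 nucleotides upstream, inside the flank, and had few read ends in each library used for the LSU. Another modified position is annotated 6 nucleotides downstream of LSU-Um2729. Leaving modified positions out of the flanks gave 0.893 in chromatin, 0.773 in the knock-out and 0.946 in wild type.

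Both targets of SNR41 (snR41) are in 18S rRNA. SSU-Am541 had 352 read ends against 1953 in chromatin, a score of 0.820 with an interval from 0.7997 to 0.838. It had 1 read end in the knock-out, a score of 0.984, 2 in knock-in whole-cell RNA, a score of 0.992 (0.971 to 0.999), and 1 in wild type, a score of 0.985 (0.917 to 1.00). The chromatin interval lies below the other 3. In rank it was 15 of 18 in chromatin, 1 of 18 in the knock-in and 3 of 18 in wild type. SSU-Gm1126 varied less, with 0.862 (0.846 to 0.876) in chromatin, 0.918 (0.844 to 0.963) in the knock-out, 0.851 (0.795 to 0.894) in the knock-in and 0.926 (0.810 to 0.980) in wild type. All 4 intervals of SSU-Gm1126 overlap, the wild-type one resting on 4 read ends.

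SSU-Cm1639, the target of SNR70 (snR70), scored 0.916 (0.906 to 0.925) in chromatin, 0.969 (0.933 to 0.989) in the knock-out, 0.954 (0.925 to 0.974) in the knock-in and 0.980 (0.952 to 0.993) in wild type. The chromatin value is the lowest, and its interval stays below those of the knock-out and wild type and touches that of the knock-in. By 3′ ends alone chromatin was highest, at 0.977, and by 5′ ends alone it was lowest, at 0.912.

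In the second cluster, SSU-Gm1572, the target of SNR57 (snR57), had 370 read ends against 2946 in chromatin, a score of 0.874 (0.861 to 0.887). It scored 0.988 (0.933 to 1.00) in the knock-out, 0.954 (0.926 to 0.974) in the knock-in and 0.970 (0.912 to 0.994) in wild type. Chromatin thus lay below the other 3. With the median of the flanks chromatin was at 0.835, above the knock-in at 0.794 but below the knock-out and wild type. Run 1 of the knock-in gave 0.857 (0.577 to 0.971), an interval that holds the chromatin value. A position annotated as m7G lies 3 nucleotides downstream of SSU-Gm1572, inside its flank. Leaving modified positions out of the flanks gave 0.881 in chromatin, 0.955 in the knock-in and 0.971 in wild type. SSU-Um1269, the target of SNR55 (snR55), scored 0.908 (0.899 to 0.915) in chromatin, 0.976 (0.943 to 0.992) in the knock-out, 0.933 (0.904 to 0.955) in the knock-in and 0.920 (0.874 to 0.952) in wild type. Here the knock-out is highest, and chromatin and wild type overlap. SSU-Gm1271, a target of snR40, lies 2 nucleotides downstream and belongs to its flank.

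LSU-Am1133, the target of SNR61 (snR61), had 725 read ends against a flank mean of 13801 in chromatin and a score of 0.947 (0.943 to 0.951), the second highest of 37 LSU sites in that library. It scored 0.986 (0.921 to 1.00) in the knock-out, 0.964 (0.937 to 0.981) in knock-in whole-cell RNA, 0.961 (0.937 to 0.978) in knock-in mature LSU rRNA and 0.987 (0.974 to 0.994) in wild type. All libraries lay within 0.04 of each other, the smallest range of the 8 sites.

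Chromatin-associated RNA holds rRNA that is still being made, and its comparison with mature wild-type rRNA asks which sites are less protected at that stage. All 8 sites had lower point values on chromatin, and the interval of the difference excluded 0 at 6. This was not particular to them: of all 55 known sites 54 had lower point values, and at 50 the interval lay below 0. LSU-U2954, which is not among the 55, was also lower on chromatin, at 0 against 0.376 in mature wild-type LSU rRNA. By 1 kind of read end the sign turned at SSU-Cm1639, to 0.0296 with 3′ ends, and at SSU-Um1269, to 0.0172 with 5′ ends. Past the limit, 2 of 8 sites were lower and none was higher, where 9.09% of all 55 known sites were called lower and 0% higher. The 2 were SSU-Am100 at -0.285 (-0.362 to -0.185) and SSU-Am541 at -0.165 (-0.190 to -0.0945), from snR51 and snR41 of the same cluster, and they were also the only 2 of the 18 known SSU sites called. With so few sites, 2 of 8 against 9.09% is a description and was not tested, and it depends on the setting. With a robust SD as the limit 3 of the 8 sites were lower where 61.8% of known sites were, with 5′ ends alone 1 of 8 where 30.9% were, and when the SD between the runs was taken without LSU-Um2421 it was 2 of 8 where 27.3% were. The library also differs from the gel-purified ones in RNA fraction, depth and evenness of read ends, which cannot be told apart from the stage of the RNA. Between positions, the SD of its read ends divided by their mean was 1.00 in the SSU and 0.986 in the LSU. In the gel-purified wild-type libraries the same ratio was 0.555 and 0.570.

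The remaining SSU sites had smaller differences: -0.0954 (-0.123 to -0.0358) at SSU-Gm1572, -0.0647 (-0.121 to 0.0523) at SSU-Gm1126, -0.0635 (-0.0806 to -0.0346) at SSU-Cm1639 and -0.0121 (-0.0452 to 0.0339) at SSU-Um1269. SSU-Um1269 ranked 17 of 18 from the most negative. In the LSU the differences were -0.0542 (-0.0823 to -0.0151) at LSU-Um2729 and -0.0394 (-0.0478 to -0.0260) at LSU-Am1133, which ranked 34 and 35 of 37. The median difference was -0.0801 at the 6 SSU sites beside -0.0850 over all 18, and -0.0468 at the 2 LSU sites beside -0.137 over all 37. At the 11 sites guided by other polycistronic snoRNAs (snR72 to snR78, snR67-snR53 and snR190-U14) it was -0.0939 and none was called, but 2 came close to their limit: SSU-Am28 (snR74) at -0.150 (-0.165 to -0.121) and LSU-Um2421 (snR78) at -0.325 (-0.355 to -0.290). The 5 sites of SNR41-70-51 ranged from -0.285 to -0.0542, and the cluster that held both called sites also held SSU-Gm1126, SSU-Cm1639 and LSU-Um2729, which stayed within the limit.

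**Figure D2:**
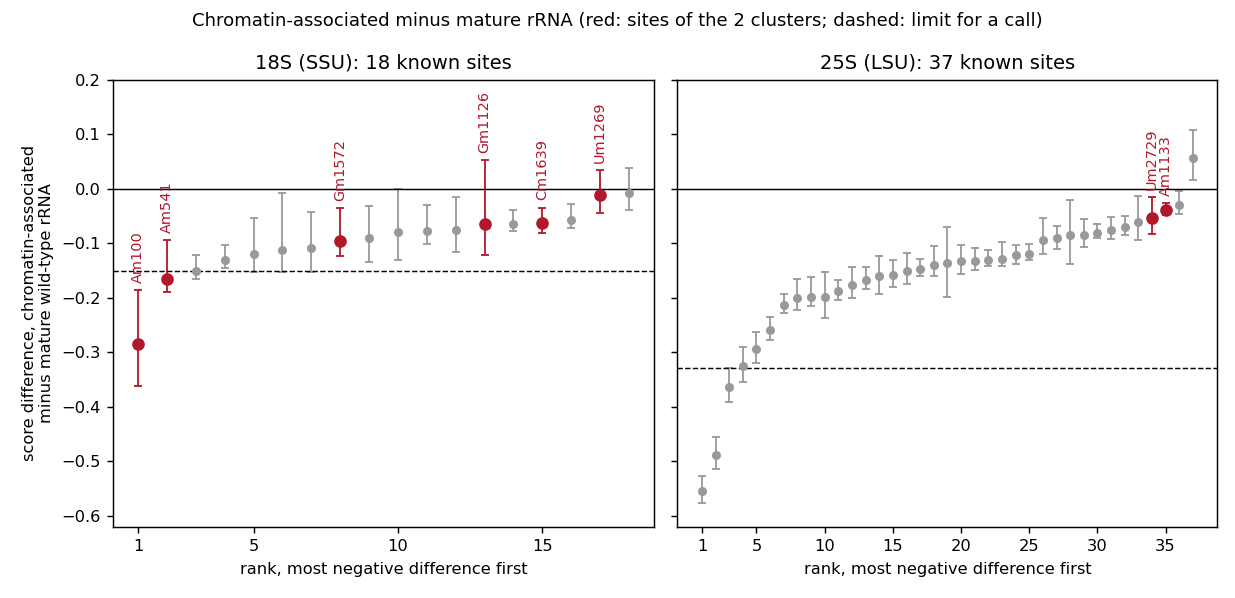
Score difference, chromatin-associated minus mature wild-type rRNA, for 18 SSU (left) and 37 LSU (right) known sites in rank order, with 95% counting intervals; red points are sites of the 2 clusters and the dashed lines mark a lowering by the limits of 0.151 (SSU) and 0.329 (LSU). SSU-Am100 and SSU-Am541 lie below the SSU line, and LSU-Um2729 and LSU-Am1133 are near the right end.

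The call at SSU-Am100 was made under all 14 alternative settings, with differences between -0.198 and -0.429. That at SSU-Am541 was lost under 5 of the 14, among them either kind of read end alone, where the difference was -0.200 with 3′ ends and -0.0898 with 5′ ends. Its wild-type value rests on 1 read end.

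The 2 targets of snR51 and the 2 of snR41 were set side by side within each library. On chromatin, SSU-Am100 was lower than LSU-Um2729 by a difference of -0.400 (-0.424 to -0.376), and in wild type, with each in its own gel-purified library, by -0.169 (-0.270 to -0.0860). In the knock-out the difference was 0.0638 (-0.120 to 0.322) and in knock-in whole-cell RNA 0.0547 (-0.0196 to 0.142), so that in both whole-cell libraries the snR51 pair overlapped. For snR41, SSU-Am541 minus SSU-Gm1126 was -0.0417 (-0.0665 to -0.0174) on chromatin, 0.0659 (-0.0190 to 0.141) in the knock-out, 0.141 (0.0931 to 0.197) in the knock-in and 0.0589 (-0.0281 to 0.176) in wild type. The order of the snR41 pair on chromatin rested on the kind of read end: the difference was -0.132 (-0.160 to -0.105) by 3′ ends and 0.103 (0.0583 to 0.145) by 5′ ends. In the knock-in SSU-Am541 was higher by both, with 0.0780 (0.0273 to 0.154) by 3′ ends and 0.175 (0.0918 to 0.260) by 5′ ends.

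The knock-out comparison asks whether the mutated snR67 region leaves other sites as they were. It sets whole-cell RNA of YWD486 against gel-purified rRNA of BY4741, so that strain, RNA fraction and depth cannot be told apart. None of the 8 sites was called lower or higher, where 3.64% of known sites were lower and 0% higher. The median difference was -0.00088 at the 8 sites beside 0 over all 55. The widest was LSU-Um2729 at -0.188 (-0.436 to -0.0412), which excluded 0 but stayed within the LSU limit and ranked 3 of 37. When the SD between the runs was taken without LSU-Um2421, a choice made after the data had been seen, the limit was 0.164 and LSU-Um2729 was called lower, where 5.45% of known sites were. Its neighbour LSU-Um2724, which shares its guide snR67 with the mutated target, scored 0.914 in the knock-out and 0.981 in wild type. SSU-Um1269 was higher in the knock-out by 0.0560 (0.0104 to 0.104), also within the limit. At the other 6 sites the interval held 0.

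**Figure D3:**
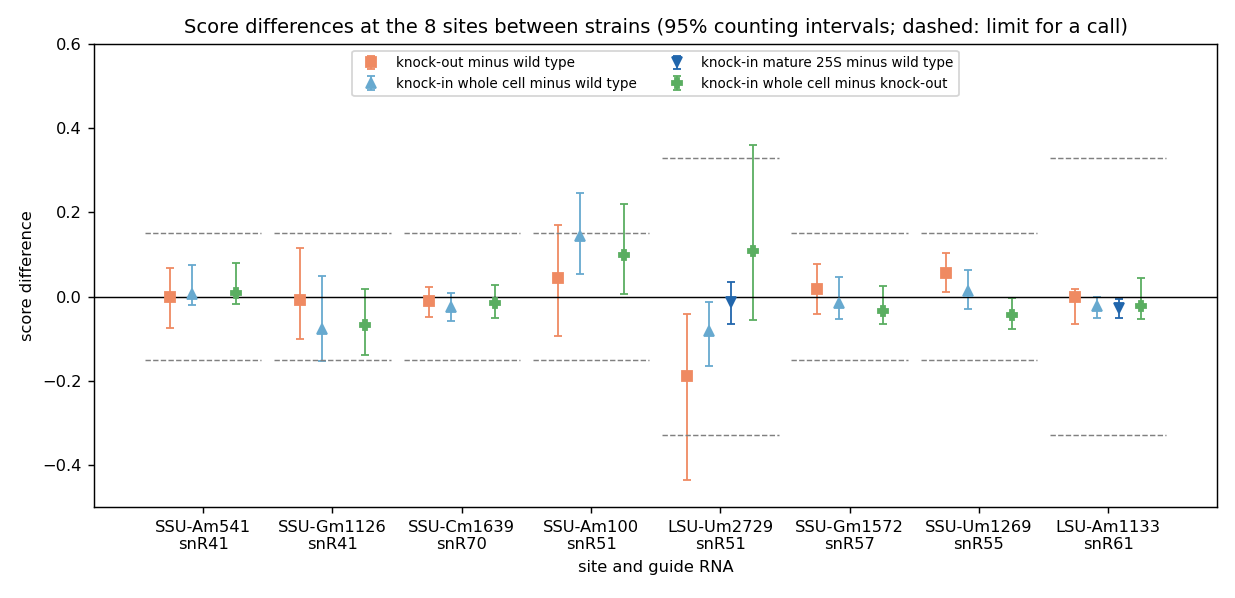
Score differences at the 8 sites between strains, with 95% counting intervals and the limit for a call of each subunit as dashed lines. No point lies past its dashed line; SSU-Am100 in knock-in whole-cell RNA, at 0.143, is close to the SSU limit of 0.151.

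The artificial snoRNA of the knock-in is not aimed at any of the 8 sites, and in whole-cell RNA none was called against wild type, where 3.64% of known sites were lower and 0% higher. SSU-Am100 came closest: its difference of 0.143 (0.0548 to 0.247) was the most positive of the 18 SSU sites and just within the limit of 0.151. Its score was alike in both runs, with 0.916 from 5 read ends in run 1 and 0.913 from 14 in run 2. With the median of the flanks the runs were less alike, at 0.916 and 0.821. In run 2 the positions just upstream and 2 nucleotides downstream had 437 and 455 read ends, against 38 and 56 in run 1. LSU-Um2729 differed by -0.0805 (-0.164 to -0.0128) and LSU-Am1133 by -0.0229 (-0.0510 to -0.00126). The intervals of the other 5 sites held 0. The whole-cell RNA of the knock-in holds precursors as well as mature rRNA, and this cannot be told apart from the strain.

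In gel-purified LSU rRNA of the knock-in, where 5.41% of known LSU sites were lower and 0% higher than in wild type, neither LSU site was called. LSU-Am1133 differed by -0.0259 (-0.0514 to -0.00478) and LSU-Um2729 by -0.0136 (-0.0651 to 0.0352). Their median of -0.0197 stood beside -0.0663 over all 37 LSU sites. Both thus moved little between the gel-purified libraries of these strains.

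Whole-cell RNA of the knock-in and of the knock-out share the RNA fraction, and 7.27% of known sites were lower and 1.82% higher in the knock-in. Of the 8 sites none was called. SSU-Am100 was higher in the knock-in by 0.0984 (0.00532 to 0.220), the most positive of 18, and SSU-Um1269 differed by -0.0425 (-0.0756 to -0.00340). LSU-Um2729 differed by 0.107 (-0.0553 to 0.360), an interval that holds 0. The comparisons share libraries, so that a value high or low in 1 library recurs in each comparison that uses it.

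Set in order within each site, the libraries formed 26 neighbouring pairs, and in 6 the interval of the difference excluded 0. The interval covers counting error only, and the order was not held to the limit for a call. At SSU-Am100 the knock-in stood above the knock-out by 0.0984, within the SSU limit, and wild type above chromatin by 0.285, past it. The knock-out and wild type did not differ beyond counting error at this site. The other 4 included the knock-out above chromatin at SSU-Am541, by 0.164 and past the limit. They also included the knock-out above the knock-in at SSU-Um1269, by 0.0425 and within the limit. The last were the knock-in above chromatin at SSU-Gm1572, by 0.0800, and at SSU-Cm1639, by 0.0382. Both were within the limit and depended on the setting. At SSU-Gm1572 the median of the flanks gave 0.794 in the knock-in and 0.835 on chromatin. At SSU-Cm1639 3′ ends gave 0.903 and 0.977, and 5′ ends 0.978 and 0.912. In run 1 of the knock-in these sites scored 0.857 and 0.914, not above the chromatin values of 0.874 and 0.916. No neighbouring pair was told apart at SSU-Gm1126, LSU-Um2729 or LSU-Am1133. Neighbours in such an order are the closest values by construction. Chromatin and wild type, further apart in the order, did differ beyond counting error at LSU-Um2729 and LSU-Am1133.

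By the mean absolute score difference over the 4 libraries, the known SSU site nearest to SSU-Am100 was SSU-Am436 (snR87), at 0.146, with 0.795 in chromatin, 0.934 in the knock-out, 0.874 in the knock-in and 0.886 in wild type. SSU-Gm562, with no guide in the list, followed at 0.159. The third was SSU-Gm1126 of the same cluster, at 0.174, and SSU-Am619 (snR47) came next at 0.176.

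The read ends behind these scores show how much a single neighbour can weigh. At SSU-Gm1572 the position 4 nucleotides upstream had 3292 of the 4386 read ends of the 12 flanking positions in knock-in whole-cell RNA, 75.1%, and 595 of 1055 in the knock-out, 56.4%. Its share was 13.5% in wild type. With the median of the 12 positions in place of their mean, the knock-in score was 0.794 rather than 0.954 and its difference from wild type -0.176 rather than -0.0154, neither called. Nearly all of this came from run 2, where the position had 3229 read ends, against 63 in run 1.

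Other single positions stood out in the same run. In run 2 the position 2 nucleotides downstream of SSU-Am541 held 61.8% of its flanking read ends, that 5 nucleotides downstream of SSU-Um1269 held 44.2%, and that just upstream of LSU-Am1133 held 37.9%. On chromatin the position 6 nucleotides downstream of SSU-Um1269 held 35.2%, with 28960 read ends. What made these positions high was not tested. At SSU-Um1269 the median of the flanks gave 0.857 on chromatin and 0.923 in wild type, a difference of -0.0663 in place of -0.0121.

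**Figure D4:**
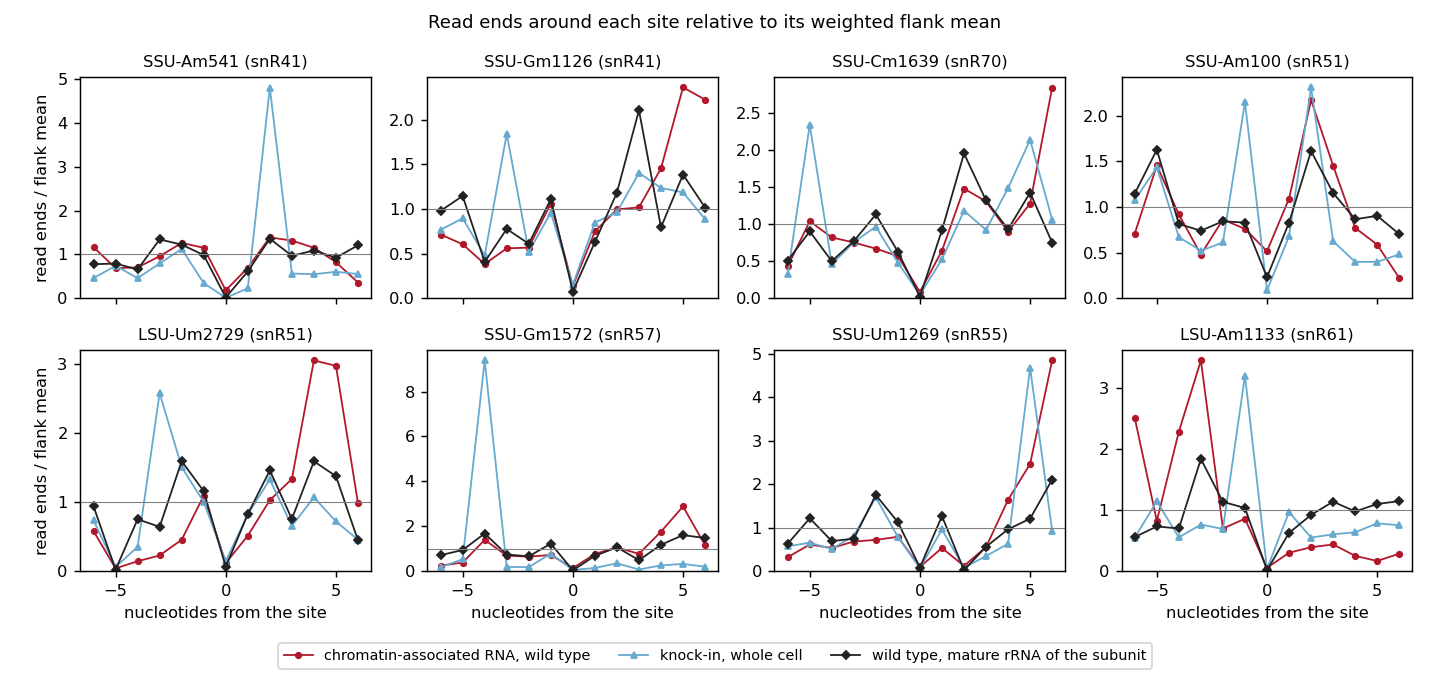
Read ends divided by the weighted flank mean (vertical axis, scaled per panel) from 6 nucleotides upstream to 6 downstream of each site, in chromatin-associated RNA, knock-in whole-cell RNA and mature wild-type rRNA. Each site is a dip at 0, shallowest for chromatin at SSU-Am100, and the knock-in has a peak of 9.39 flank means 4 nucleotides upstream of SSU-Gm1572.

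Between the runs, scores of the 6 SSU sites differed by up to 0.104, at SSU-Gm1572, and of the 2 LSU sites by up to 0.0527. The run difference excluded 0 at SSU-Cm1639, where run 2 was higher by 0.0698 (0.0182 to 0.135). The LSU limit of 0.329 hung on 1 site outside the clusters, LSU-Um2421, whose run difference was 0.872 in size, against 0.222 for the next. Without it the limit was 0.164.

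Each cleaved bond can be read from the fragment that ends there, as an RNA 3′ end, or from the one that begins there, as a 5′ end. On chromatin, where counts were high enough, 3′ ends made up 68.9% of the read ends at SSU-Am100, close to the 71.1% of its flanks. They were 83.5% (95% Wilson interval 79.3 to 87.0) at SSU-Am541, above 75.0% in its flanks. The widest gap was at SSU-Gm1572, with 81.9% (77.6 to 85.5) at the site and 40.1% in the flanks. SSU-Um1269 also had more 3′ ends than its flanks, with 51.1% against 23.1%.

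Fewer 3′ ends than in the flanks were found at SSU-Gm1126, with 26.7% against 56.7%, at LSU-Am1133, with 17.8% against 36.1%, and at SSU-Cm1639, with 1.71% (0.731 to 3.93) against 6.78%. LSU-Um2729 had 56.8% against 51.3%. At the known sites outside the clusters the share at the site was between 13.5% and 89.2% in the SSU and between 1.29% and 93.2% in the LSU. As a result the chromatin score of SSU-Gm1572 was 0.757 by 3′ ends and 0.961 by 5′ ends, while that of SSU-Am100 was low by both, 0.507 and 0.430.

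**Figure D5:**
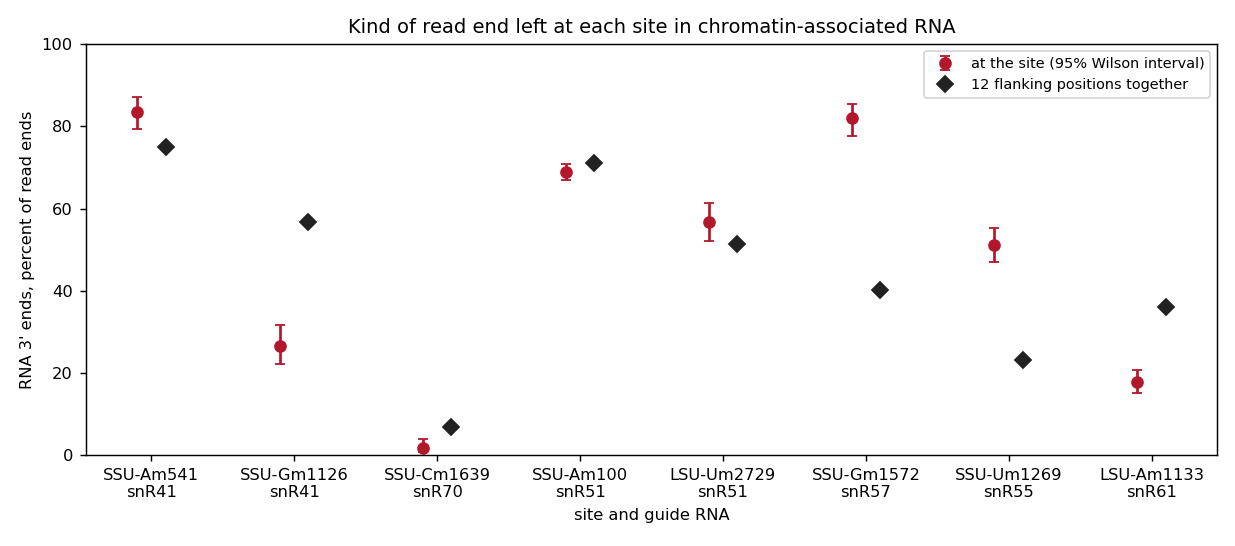
Share of RNA 3′ ends among the read ends of chromatin-associated RNA (percent, vertical axis), at each site with its 95% Wilson interval and over its 12 flanking positions. SSU-Gm1572 has 81.9% at the site and 40.1% in the flanks, and SSU-Cm1639 is low in both.

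The authors' deposited Score A, a different statistic that also uses the spread of the neighbours and is not on the scale above, gave SSU-Am100 a value of 0 in chromatin, 0.443 in the knock-out, 0.498 in knock-in whole-cell RNA and 0.487 in wild type. For SSU-Am541 the deposited Score A was 0.563 in chromatin, 0.864 in the knock-out, 0.957 in the knock-in and 0.941 in wild type. By this statistic, which comes from the same counts, chromatin was lowest of the 4 at both sites. This was not particular to them. Chromatin was also lowest at SSU-Um1269 (0.475 against 0.694 in wild type) and SSU-Gm1572 (0.546 against 0.893). The same held at SSU-Cm1639 (0.743 against 0.931) and LSU-Am1133 (0.776 against 0.958). At SSU-Gm1126 the knock-in was lower than chromatin, 0.618 against 0.625. At LSU-Um2729 the knock-out, at 0.277, and knock-in whole-cell RNA, at 0.394, were below chromatin, at 0.442. The high knock-in value of SSU-Am100 did not stand out by Score A, which was 0.764 in run 1 and 0.322 in run 2.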

How the data were processed

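Each sample file held 6 tracks in 1 column: raw counts of RNA 3′ ends, of 5′ ends and of both, and 3 scores that the authors had calculated. The deposited counts carry no normalization, and of the deposited scores only Score A was used. Reads were trimmed with cutadapt 1.2 and aligned with Bowtie2 2.1.0, per the submitters' processing notes; the sources used here name neither a genome build nor options. The knock-in mature LSU file was mapped to the 35S precursor with a filter of its own on errors near the RNA end, per the file headers. Any difference involving it includes that.

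The count of both ends was used, and for the knock-in the file that sums run 1 and run 2. The flanks were 6 positions a side, weighted from 1 to 0.5 in steps of 0.1, with negative scores set to 0 and a minimum of 10 on the mean flanking count. At the 6 SSU sites of the clusters the knock-in mature LSU library was below it. Score intervals came from the exact binomial (Clopper-Pearson) form of a ratio of 2 Poisson counts, with the weighted flanks as an effective count, and intervals of differences were joined from these by the MOVER method. Their coverage was checked on simulated Poisson counts, with the same flank profile in both libraries. Libraries with unlike flanks, or with spread beyond Poisson error, were not simulated. Python 3.11.15, numpy 2.4.6 and scipy 1.17.1 were used. Guide assignments came from general knowledge of yeast rRNA.

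The sites, lists and criteria were chosen with earlier results of these data known. The text names the 8 sites in every comparison that covers them. Other sites are named only as modified neighbours within 6 nucleotides, as the 3 SSU sites nearest in scores to the lowest-scoring one, as targets of other polycistronic guides, or as targets of the altered snoRNAs.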

Additional observations from a re-analysis of the deposited data

How the results depend on the processing

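The count of 2 sites lower on chromatin was 1, SSU-Am100, with flanks of 2 positions, with the median of the flanks, with 3′ ends alone, with 5′ ends alone and when the limit was the largest run difference. It was 3 with a robust SD of the run difference, which added SSU-Gm1572, and 2 under the other 8 alternatives. Over the known sites 5 were lower, against 17 with 5′ ends alone, 34 with the robust SD, 15 when LSU-Um2421 did not enter the SD, and 1 under the limit from the largest run difference. In the knock-out 0 sites were lower, against 1, LSU-Um2729, with the robust SD, where the known sites called were 4 rather than 2, and 1, again LSU-Um2729, without LSU-Um2421, where they were 3. In knock-in mature LSU rRNA the known sites called were 2, against 14 with the robust SD and 9 without LSU-Um2421. With the robust SD, 9 known sites were lower in knock-in whole-cell RNA than in wild type, against 2, and 9 than in the knock-out, against 4. The knock-in counts of lower sites among the 8 were 0 under each alternative run, and the robust SD put SSU-Am100 higher than wild type and than the knock-out. Detection was 8 of 8 except with 5′ ends alone, 7, without SSU-Am100. The narrower or wider limit gives the changes under the 3 limit settings by construction, and for the others the cause was not tested. Of 446 single values under alternatives, 32 moved by more than their interval and no called value changed sign. The uncalled chromatin difference of LSU-Um2729 was 0.134 with the knock-out as the reference and 0.0262 with knock-in whole-cell RNA; that of SSU-Cm1639 was 0.0296 with 3′ ends alone and that of SSU-Um1269 0.0172 with 5′ ends alone. Leaving out LSU-Um2421 and summing both gel-purified wild-type libraries were added after the data had been seen, and the sum changed no count of the 8 sites. No paired analysis was possible because each group holds 1 sample. Depth limits the knock-out most: with a minimum flanking count of 50, 7 of the 8 sites remained.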

Other observations

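Reads of the other subunit in the gel-purified wild-type libraries gave a second, thin reading of the sites. In the LSU library, 18S reads left 3 read ends against a flank mean of 26.1 at SSU-Gm1126, a score of 0.885, and 1 against 25.3 at SSU-Um1269, a score of 0.960. SSU-Am541 had 0 against 14.8, where the 3 counts that a count of 0 allows would give a score of 0.798, and SSU-Cm1639 had 0 against 16.6, which gives 0.819 at 3 counts. In the SSU library, 25S reads left 0 read ends at LSU-Am1133 against 20.5, or 0.854 at 3 counts, and 0 at LSU-Um2729 against 14.7, or 0.796 at 3 counts. At this depth no difference from the main libraries was detectable.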
